A study of Silurus meridionalis with 18 samples.

Results

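Of the 25390 gene models with an expression value in the southern catfish, Silurus meridionalis, a scaleless freshwater catfish, 63 were taken as keratins and desmosome proteins by product name alone. A model was a member if its product name began with "keratin" or held desmoplakin, desmoglein, desmocollin, plakophilin, plakoglobin, envoplakin, periplakin, plectin or dystonin. The rule itself used no expression value, though it was set with earlier results of these data known. Polyadenylated RNA of adult fish had been sequenced from 18 tissues: Maxillary_barbel and Mandibular_barbel (the sensory whiskers around the mouth), Skin, Gill, Intestine, Testis, Spleen, Kidney, Head_kidney, Heart, Muscle, Liver, Pancreas, Ovary, Brain, Telecephlon (the label's spelling), Olfactory_bulb and Retina. The labels give the fish as adults from a bottom environment and name no treatment, strain, age in days or number of fish behind a library.

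Keratins are the intermediate filament proteins of epithelia, and a keratin filament is built from pairs of 1 type I and 1 type II chain. Desmosomes rivet neighbouring cells together: desmogleins and desmocollins, which are cadherins, bind across the gap between cells, the armadillo proteins plakoglobin and the plakophilins hold their tails, and desmoplakin ties the complex to the filaments. Desmoplakin belongs to the plakins, large linker proteins that also include plectin and dystonin, which anchor filaments at hemidesmosomes on the basement membrane, and envoplakin and periplakin, which in mammals form part of the cornified envelope of the skin.

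The name rule gathered more than its label. Of the 63 members, 12 were keratins with an intermediate filament domain in the deposited annotation (4 with the type I domain, 7 with the type II domain and 1 with neither), 5 were desmosomal cadherins, 8 armadillo proteins and 12 plakins. A further 12 were named keratin, type I cytoskeletal 17-like but carried no filament domain. Of these 12, 10 were single-exon models, 11 had no annotated domain at all, 5 were listed at 0 in every tissue and none exceeded 0.868 FPKM (sequenced fragments, scaled for the length of the gene and the depth of the library). The remaining 8 keratin-associated and 6 keratinocyte-named proteins belong to neither structure by their names. In all, 46 members reached 1 FPKM in some tissue, and the 17 that did not were the 12 models without a filament domain and 5 keratin-associated ones. The rule also missed gene models that carry the type I keratin domain under another name. Only those named cytokeratin or hypothetical protein were looked for, 8 in all, and these are given separately below. Models with the type II domain under another name were not looked for.

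Each tissue had 1 library, so every value below is a single measurement without an error, and differences carry no test. Depth, estimated from the step between low values, lay between 6330000 fragments in Skin and 51100000 in Gill, with 9540000 in Muscle and about 22600000 or fewer in the barbels, Intestine, Telecephlon, Olfactory_bulb and Retina. The estimate is rough, as only 9.92% to 19.8% of low values lay within 0.02 steps of whole reads. Gill and Skin differ from the barbels in estimated depth, and Intestine differs from Liver (50500000). Where these tissues are compared, tissue and depth cannot be told apart. The number of gene models at 1 FPKM or more was between 5740 in Pancreas and 16899 in Olfactory_bulb. Differences are given as differences in log2(FPKM + 1), a scale that understates those of low genes, and 4-fold means 2 on that scale. In bulk tissue, fewer cells of a type and less RNA per cell cannot be told apart. Near-identical keratin copies can share reads, so the split between single copies is uncertain.

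Among the keratins of the name rule, keratin 4, keratin 92 and keratin 97 were the highest in the body surface. In Skin, the type I models C0J45_09361 and C0J45_20521, which lie outside the rule, stood higher still, at 7379 and 5442 FPKM. Keratin 4 (C0J45_00982, type II, chromosome 1, 33347938 to 33351302) stood at 26435 FPKM in Maxillary_barbel, 21978 in Mandibular_barbel and 2331 in Skin. It reached 2819 in Gill, 765 in Intestine and 291 in Testis, while over the 14 tissues other than Gill and the body surface the lowest value was 0.595, in Brain, and the median 4.51. The barbels were thus apart from every other tissue, and Skin stood below Gill. Keratin 97 (C0J45_22165, type I, chromosome 26, 17377314 to 17380900) was also highest in the barbels, with 5469 in Maxillary_barbel, 4257 in Mandibular_barbel, 1213 in Skin and 781 in Gill. It was also present at 360 in Intestine and at 136 in Ovary, where it was the highest keratin, and its lowest value was 0.0709, in Heart. Keratin 92 (C0J45_18677, type I, chromosome 22, 323710 to 465323) was more restricted to the body surface, at 6992 in Maxillary_barbel, 5385 in Mandibular_barbel and 3039 in Skin. Gill had 85.7, and the other 14 tissues ran from 0 to 5.20, with a median of 0.179. All 3 body surface libraries lay above all 15 others for keratin 92 and keratin 97, which was not so for keratin 4. The model of keratin 92 has 14 coding exons, against 6 to 9 in the other 11 keratins.

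**Figure D1:**
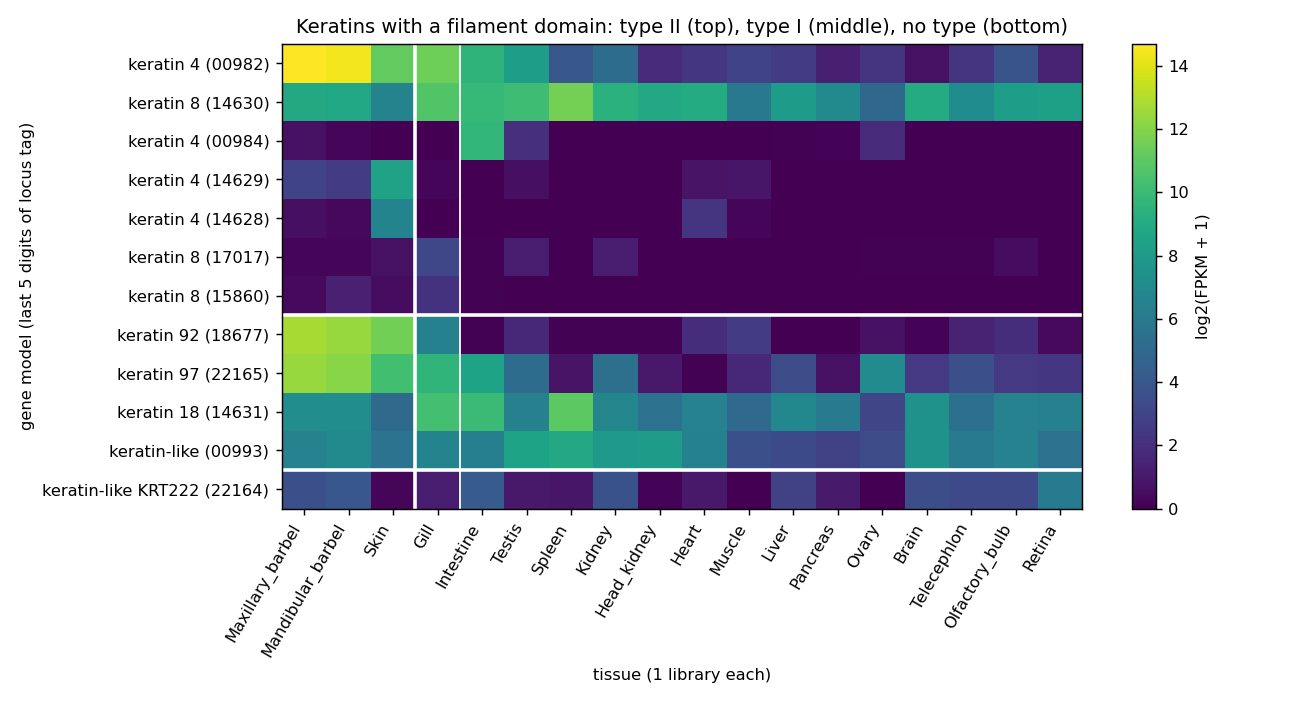
Level of the 12 keratins with a filament domain in 18 tissues (1 library each), as log2(FPKM + 1) from dark (0) to yellow. Rows carry the last digits of the gene tag. Keratin 4 (top row), keratin 92 and keratin 97 are brightest in the barbels, keratin 8 (second row) and keratin 18 are lit in every column with their highest value in Spleen, and another keratin 4 (the row under keratin 8) is bright in Intestine.

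Keratin 8 and keratin 18, the pair of simple, single-layered epithelia in vertebrates, behaved differently. Keratin 8 (C0J45_14630, type II, chromosome 16, 10652198 to 10656253) was at 10 FPKM or more in all 18 tissues and was the highest keratin of the name rule in 12 of them. It ran from 29.9 in Ovary over a median of 452 to 3113 in Spleen, followed by 1680 in Gill, 1121 in Testis and 927 in Intestine. In Testis the type I domain model C0J45_09359, outside the rule, stood higher, at 1661. Keratin 18 (C0J45_14631, type I, chromosome 16, 10684140 to 10687828) ran from 7.39 in Ovary over a median of 90.0 to 2071 in Spleen, with 1252 in Gill and 1022 in Intestine. The barbels had 467 and 438 of keratin 8 and 146 and 144 of keratin 18, and Skin only 92.4 and 32.4. Keratin 8 was the more abundant of the pair in 17 tissues, Intestine being the exception. A further chain, keratin-like (C0J45_00993, type I, chromosome 1, 33593014 to 33598491), ran from 6.23 in Pancreas over a median of 87.8 to 465 in Spleen, with 370 in Testis, 280 in Head_kidney and 238 in Kidney. It exceeded keratin 18 in several tissues, among them Testis (370 of keratin-like, 84.4 of keratin 18), Head_kidney (280 and 46.0) and Kidney (238 and 106).

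Keratin 8 tracked the sum of these type I chains more closely than either alone. Over the 18 tissues keratin 8 and keratin 18 correlated at a Pearson r of 0.87 on the log2(FPKM + 1) scale (Spearman 0.80), keratin 8 and keratin-like at 0.78 (Spearman 0.80), and keratin 18 and keratin-like at only 0.49 (Spearman 0.50). Keratin 8 and the sum of keratin 18 and keratin-like, a sum formed after the values were seen, correlated at 0.97 (Spearman 0.97), and 0.95 without Ovary and Muscle, the tissues farthest from the median. The ratio of keratin 8 to keratin 18 spanned 0.907 in Intestine to 13.3 in Testis, whereas the ratio of keratin 8 to the sum spanned 0.840 in Intestine to 2.91 in Heart. The type I domain models outside the rule were not part of this sum. The points share each library's depth and scaling, so these correlations are descriptions.

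Spleen held the highest keratin 8, keratin 18 and keratin-like values of all tissues. These 3 chains made up 99.7% of its summed FPKM of the keratins of the name rule. The 5 epithelial markers epcam, cdh1, tp63, esrp1 and grhl3 summed to 10.1 FPKM in Spleen, with epcam at 8.04 and cdh1 at 1.23. The same sum was 1408 in Gill, 1736 and 1694 in the barbels and 45.7 in Intestine. Desmoplakin stood at 11.6 and 12.3 FPKM for its 2 models in Spleen. The part of epithelial cells in the Spleen values was not tested.

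Other keratins were confined to fewer tissues. A second keratin 4 (C0J45_00984, type II, chromosome 1, 33378324 to 33386918) stood at 838 FPKM in Intestine, next to 3.14 in Testis and 2.5 in Ovary, and was below 1 in the other 15 tissues. A pair of adjacent keratin 4 copies was high in Skin: C0J45_14629 (chromosome 16, 10632502 to 10636108) at 359 in Skin, against 6.74 and 5.22 in the barbels, and C0J45_14628 (chromosome 16, 10623363 to 10626833) at 97.5 in Skin, against 0.517 and 0.244 in the barbels. Their highest values beyond the body surface were 0.832 in Muscle for C0J45_14629 and 3.72 in Heart for C0J45_14628. Models of the keratin 8 name with little RNA were both highest in Gill, C0J45_17017 at 7.85 and C0J45_15860 at 3.52. Keratin-like protein KRT222 (C0J45_22164), which has a filament domain but neither type's signature, was highest in Retina at 64.4, ahead of 17.8 in Intestine, 14.8 in Mandibular_barbel and 11.9 in Kidney.

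By the rule that a tissue-enriched gene has at least 10 FPKM and an FPKM + 1 at least 5 times that of the next tissue, 4 of the 63 members qualified, or 6.35%, while 7.51% of all 25390 genes did. They were the Intestine keratin 4, both Skin keratin 4 copies, and the Gill desmoglein-2 described further on. Such a rule cannot find genes shared by both barbels. With the barbels averaged to 1 tissue, 8 members qualified, where 7.87% of all genes did, and the additional ones were keratin 4 (C0J45_00982), plakophilin-1, desmoglein-2 (C0J45_19918) and desmocollin-1, all 4 led by the barbels, as were 0.299% of all genes. Keratin 92 alone met the same 5-fold rule for the body surface as a group, which 0.0551% of all genes met. With Skin left out, 5 members met it for the barbel pair (keratin 4 C0J45_00982, keratin 92, keratin 97, desmoglein-2 C0J45_19918 and desmocollin-1), as did 0.311% of all genes. Keratin 92 had the largest difference between the body surface and the other tissues of all 18697 genes compared, 11.08 on the log2 scale.

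The weight of keratins varied widely between libraries. Summed over the 12 keratins, they held 6.40% of all FPKM in Maxillary_barbel and 5.30% in Mandibular_barbel, followed by 1.29% in Gill and 1.22% in Skin. Spleen had 0.741%, Intestine 0.580%, Testis 0.243%, Brain 0.196% and Kidney 0.170%, and the lowest were Ovary with 0.0267%, Pancreas with 0.0199% and Muscle with 0.0143%. In Testis the share was 0.549% with a denominator free of mitochondrial and hemoglobin genes. The make-up of these 12 keratins differed as much as the amount. The outside type I models given below are left out of it. They summed to 12942 FPKM in Skin and 1759 in Testis, against 7213 and 1910 for the 12 keratins. Keratin 8, keratin 18 and keratin-like together made up 1.77% and 2.18% of keratin FPKM in the barbels and 2.38% in Skin, 45% in Gill, 50.6% in Intestine and 24.6% in Ovary. In the other 12 tissues they made up between 82.5%, in Testis, and 99.7%, in Spleen. Gill and Intestine thus held keratin 4 (C0J45_00982) and keratin 97 beside the simple epithelial pair, while keratin 92 was at 0.0548 FPKM in Intestine, whose keratin sum also held 20.9% of the other keratin 4, C0J45_00984.

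**Figure D2:**
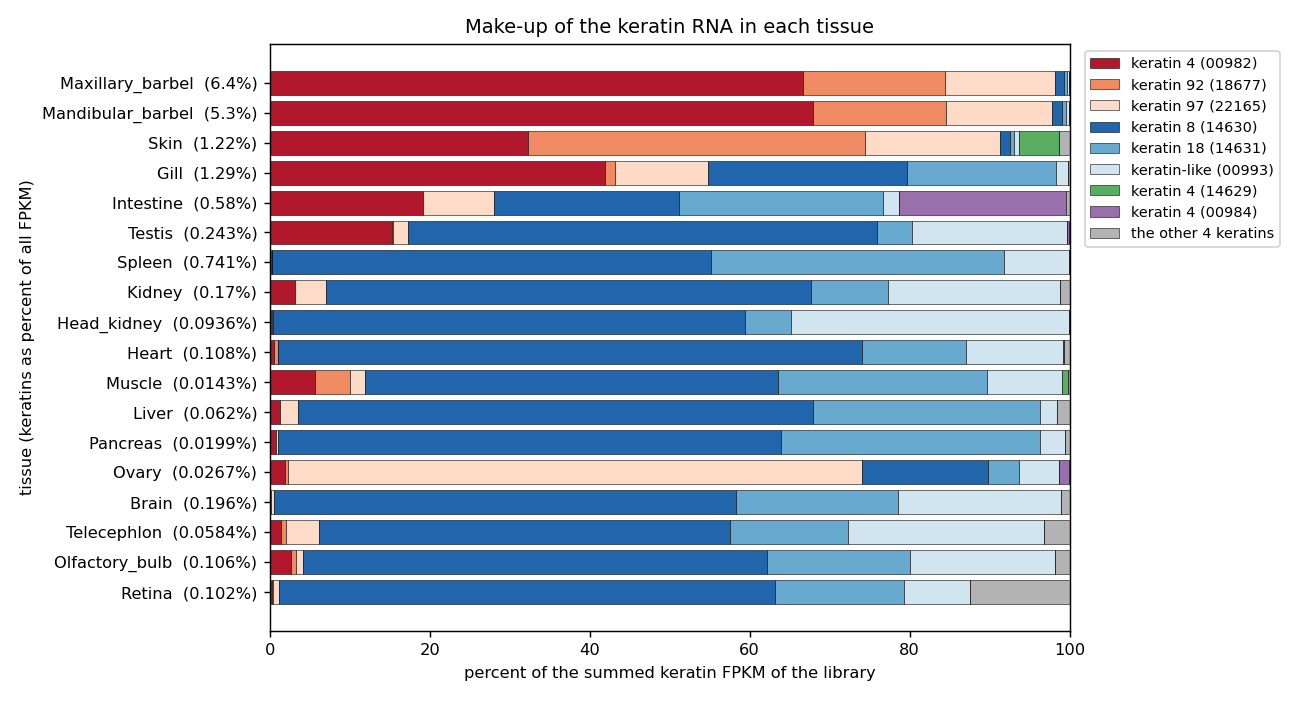
Share of each keratin in the summed FPKM of the 12 keratins of the name rule in each tissue (horizontal axis, percent). Their share of all FPKM stands beside the tissue name, and the outside type I models are not included. Red to pale orange bars (keratin 4 C0J45_00982, keratin 92, keratin 97) fill the barbels and most of Skin, blue bars (keratin 8, keratin 18, keratin-like) fill most internal tissues, and Ovary is led by keratin 97 at 71.8%.

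Type I and type II chains kept pace over a wide range. The summed type II members were 26910 FPKM in Maxillary_barbel and 36.1 in Ovary, and their Pearson correlation with the summed type I members was 0.95 over the 18 tissues (Spearman 0.94; 0.90 without the barbels, the farthest from the median), again as a description. Type II exceeded type I in 16 tissues. This rested on single chains in some libraries: without the highest chain of each type, the ratio of type I to type II was 12 in Maxillary_barbel, 10.1 in Mandibular_barbel and 30.8 in Spleen. The exceptions were Skin, where type I was 1.5 times type II (4332 against 2881 FPKM), and Ovary, where it was 4.25 times type II (154 against 36.1 FPKM). The ratio of type I to type II was 0.472 in Maxillary_barbel, 0.442 in Mandibular_barbel, 0.492 in Gill, 0.578 in Intestine, 0.811 in Spleen and 0.348 in Testis.

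These ratios depend on which models are called keratins. The 8 type I domain models taken from outside the name rule were singled out after their values were seen. They were 3 named as type I cytokeratins and 5 hypothetical proteins, the only names looked for. Type I cytokeratin, enveloping layer, like (C0J45_09361, chromosome 9, 28842071 to 28854326) stood at 7379 FPKM in Skin, above every keratin of the rule there, with 1937 and 1241 in the barbels and 157 in Gill. The enveloping layer is the outer cell sheet of a fish embryo, after which the gene is named. Another type I cytokeratin (C0J45_20521, chromosome 24, 3047544 to 3065799) stood at 5442 in Skin, 1778 and 1703 in the barbels and 1795 in Gill. A hypothetical protein (C0J45_09359, chromosome 9, 28810576 to 28821501), whose model also holds a clathrin adaptor domain, was highest in Testis at 1661 and in Intestine at 1488. Its lowest value was 16.7, in Telecephlon. With all 8 added, type I was 6.0 times type II in Skin, 1.59 times in Testis, 1.17 times in Intestine and 1.02 times in Gill, and type II exceeded type I in 12 tissues. The ratios of Testis and Intestine rested on C0J45_09359, the model with the clathrin adaptor domain. It held 1661 of the 1759 FPKM added in Testis and 1488 of the 1509 added in Intestine. Only the type I domain was looked for outside the rule, so these ratios could only rise, and any type II models outside it are not counted. Type I domain models under any further name are not counted either. The keratin share of Skin became 3.42%, that of Gill 1.75%, and that of the barbels 7.06% and 5.84%.

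**Figure D3:**
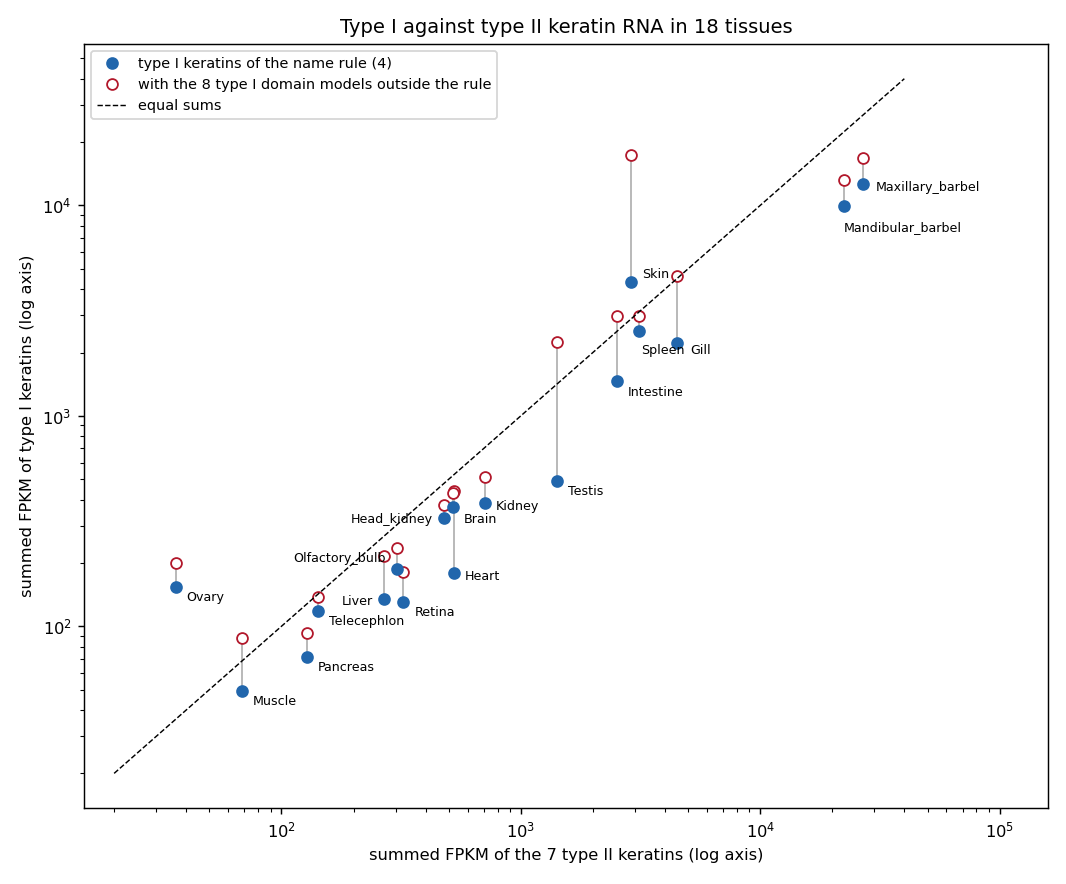
Summed FPKM of type I keratins (vertical, log axis) against that of the 7 type II keratins (horizontal, log axis) in 18 tissues, each a point. Filled points use the 4 type I keratins of the name rule, open points add 8 type I domain models outside it, and the dashed line marks equal sums. Skin stands at 17274 FPKM of type I with the added models, against 4332 without them, and Ovary lies above the line either way.

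Several members lay side by side. On chromosome 16 the 2 Skin keratin 4 copies, keratin 8 and keratin 18 followed each other with no other model between them, the pair of keratin 8 and keratin 18 facing opposite ways 27886 bp apart. These genes are also neighbours in mammals. Within this row the 2 Skin copies correlated at 0.90 across tissues, while C0J45_14629 and its neighbour keratin 8 correlated at -0.24. On chromosome 1 the barbel keratin 4 (C0J45_00982) and the Intestine keratin 4 (C0J45_00984) lay 27021 bp apart with 1 model between them and correlated at 0.25. On chromosome 26 KRT222 and keratin 97 were adjacent, with a gap of 4447 bp and a correlation of 0.20. Neighbours could thus have like or unlike profiles, and as each correlation is over the same 18 libraries it is a description.

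The desmosomal cadherins split into barbel and Gill forms. Desmoglein-2 (C0J45_19918) stood at 322 FPKM in Maxillary_barbel, 265 in Mandibular_barbel, 33.7 in Skin and 27.8 in Gill, and at most at 5.77, in Intestine, elsewhere. Desmocollin-1 (C0J45_19919), its neighbour on chromosome 23, stood at 270, 224 and 22.9 in the same body surface tissues and at 29.4 in Gill, but also at 26.5 in Heart, 19.2 in Intestine, 18.7 in Kidney and 15.9 in Spleen. Both were far higher in the barbels than anywhere else. By its annotated domains, C0J45_19919 carries a desmoglein signature that none of the models named desmoglein-2 holds, so it is a desmocollin by product name only. A second pair of desmoglein-2 models on chromosome 6 was highest in Gill: C0J45_06625 stood at 39.3 in Gill, 22.1 in Intestine and 15.8 in Heart, with 2.36 and 5.83 in the barbels, and C0J45_06624 at 21.8 in Gill, with at most 0.445 in any other tissue and 0 in both barbels and Skin. The remaining model, C0J45_19917, reached only 3.05 in Pancreas and 3.04 in Kidney.

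Among the armadillo proteins, which sit on the inner face of the junction, 4 were highest in a barbel. Plakophilin-1 (C0J45_00447) stood at 434 in Maxillary_barbel, 348 in Mandibular_barbel, 34.6 in Skin and 74.7 in Gill, with 37.4 in Heart and 35.1 in Intestine. Junction plakoglobin a (C0J45_09364) stood at 351, 339 and 34.9 in the same body surface tissues, at 120 in Gill and at 59.1 in Intestine, and its lowest value was 0.586, in Muscle. Plakophilin-3 (C0J45_09851) stood at 319, 262 and 38.2, at 68.3 in Gill and 19.8 in Intestine, and was below 5 in all other tissues. Plakophilin-1, plakoglobin a and plakophilin-3 were higher in Gill than in Skin, and at 9.40 or less in Muscle, Liver, Testis and Ovary. Plakophilin-2 (C0J45_09547), also highest in a barbel, was low throughout, at 16.2, 18.6 and 12.4 in Maxillary_barbel, Mandibular_barbel and Skin and at 6.03 in Gill. Plakophilin-3-like (C0J45_21880) had a different order, with 29.2 in Spleen, 26.7 in Heart, 23.8 in Brain and 15.2 in Olfactory_bulb, against 8.48 in Gill and 2.87 or less in the body surface. A second plakoglobin (C0J45_18674) and a plakophilin-4 (C0J45_00076) were found mainly in neural tissue: 15.9 and 18.1 in Telecephlon, 11.3 and 9.99 in Olfactory_bulb, 8.24 and 16.3 in Brain and 1.90 and 2.37 in Retina. Plakophilin-4 is known outside desmosomes, at adherens junctions. The other plakophilin-4 (C0J45_03170) was broad, between 0.446 in Muscle and 14.1 in Gill.

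The plakins ranged from surface-led to broad. Desmoplakin (C0J45_06459), the filament anchor of the desmosome, stood at 382 FPKM in Maxillary_barbel, 332 in Mandibular_barbel, 108 in Skin and 124 in Gill, with 52.5 in Intestine and 21.0 in Heart. The second desmoplakin (C0J45_16613) was flatter, with 53.8 in Skin, 36.8 and 32.1 in Mandibular_barbel and Maxillary_barbel, 30.5 in Intestine, 25.6 in Heart and 21.6 in Gill. Periplakin (C0J45_12797) was highest in Gill, at 220, ahead of the barbels, at 196 in Mandibular_barbel and 161 in Maxillary_barbel, with 39.2 in Skin. One envoplakin (C0J45_00236) had 174 in Mandibular_barbel, 136 in Maxillary_barbel and 120 in Gill, and the other (C0J45_23481) had 181 in Gill, 54.9 in Mandibular_barbel and 32.0 in Maxillary_barbel. In Skin they stood at 5.23 and 2.99. The envoplakins exceeded 10 FPKM only in Gill and the barbels, and periplakin only in these, in Skin and in Intestine (11 FPKM).

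Plectin and dystonin, the cross-linkers of several filament systems, were spread more widely. Plectin isoform X11 (C0J45_04323) stood at 82.3 in Mandibular_barbel, 73.0 in Maxillary_barbel and 25.7 in Skin, at 41.8 in Gill, 38.4 in Heart and 35.0 in Intestine. A second plectin (C0J45_19554) was highest in Intestine at 19.1 and Olfactory_bulb at 15.9. Another plectin (C0J45_06114), whose model also holds a ubiquitin-protease domain, reached 13.3 in Mandibular_barbel, and a short model, C0J45_04322, only 1.43, in Telecephlon. Dystonin came as 3 adjacent models on the same strand of chromosome 2, gaps of 3553 and 370 bp apart. Neighbours among them correlated at 0.85 and 0.97 across tissues. By annotated domains, C0J45_02074 holds calponin homology and plectin repeat domains and C0J45_02076 EF-hand and growth-arrest-specific protein 2 domains. C0J45_02075 holds neither set, and all 3 hold spectrin repeats. Whether they are parts of a single gene was not tested, and each was counted as a member. If they are, the plakin counts below hold that gene more than once. C0J45_02076 had 66.0 in Skin, 57.0 in Brain, 43.2 in Maxillary_barbel and 41.7 in Olfactory_bulb. C0J45_02075 was flatter, with 23.3 in Maxillary_barbel, 20.9 in Olfactory_bulb, 19.4 in Mandibular_barbel, 19.2 in Brain and 18 in Skin. C0J45_02074, the longest with 65 coding exons, had 21.1 and 20.8 in the barbels and 7.49 in Skin, with 7.26 in Olfactory_bulb, 6.63 in Telecephlon and 1.29 in Brain. In mammals, different forms of dystonin serve epidermis and nerve.

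**Figure D4:**
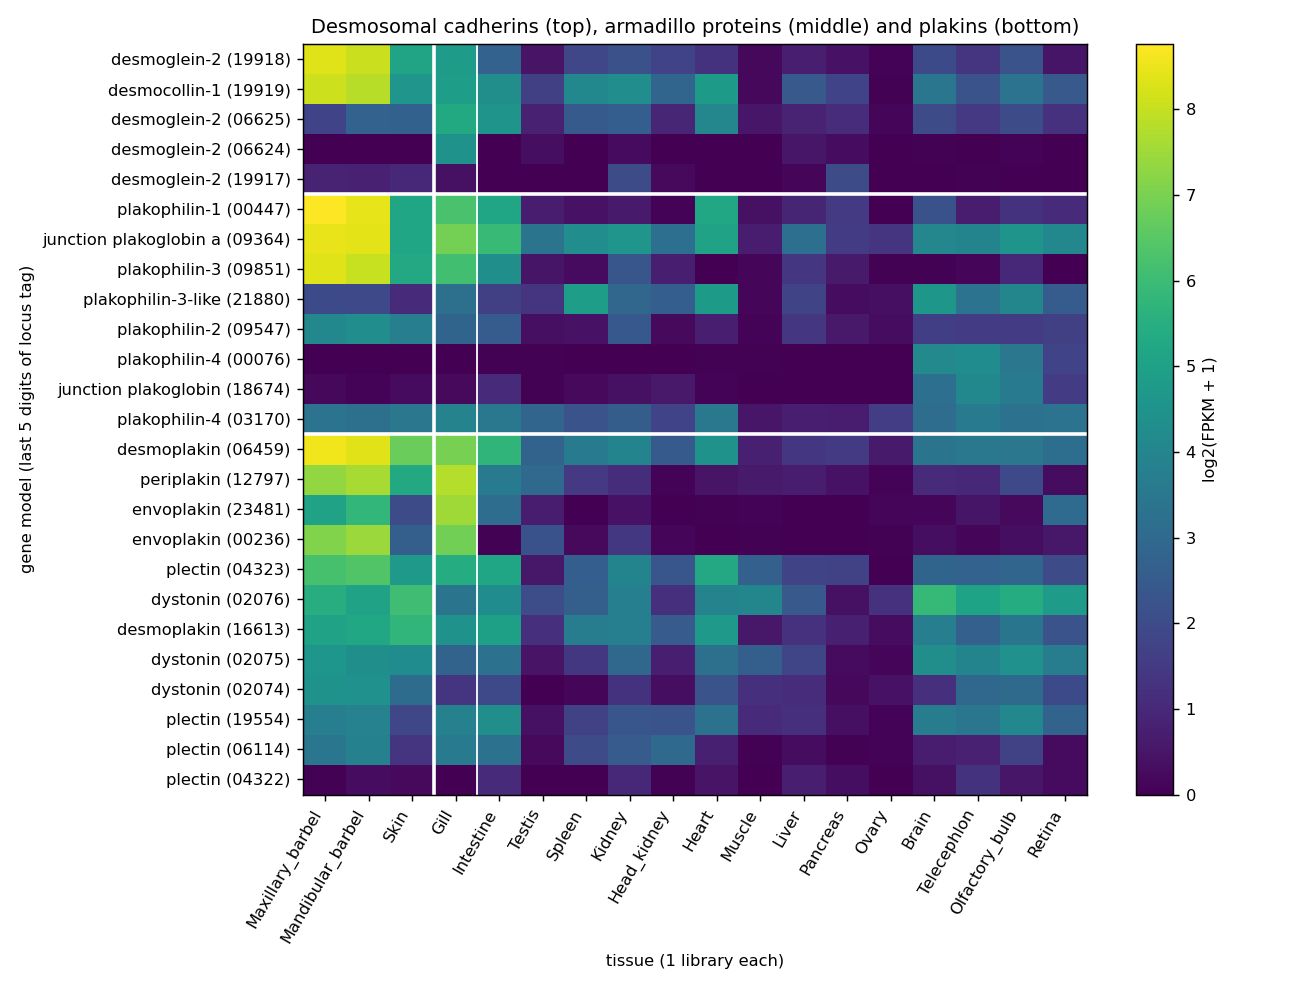
Level of the 25 desmosomal cadherins, armadillo proteins and plakins in 18 tissues (1 library each), as log2(FPKM + 1) from dark (0) to yellow. The top row of each block is brightest in the barbels, while periplakin and envoplakin C0J45_23481, next in the plakin block, are brightest in Gill. C0J45_06624 is lit in Gill, and plakoglobin C0J45_18674 and plakophilin-4 C0J45_00076 are lit in the neural columns. Ovary, Pancreas and Muscle are dark in most rows.

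Summed over these 25 proteins, desmosome and plakin RNA was 0.429% of all FPKM in Maxillary_barbel and 0.402% in Mandibular_barbel, 0.223% in Gill and 0.0890% in Skin, with 0.0542% in Intestine, 0.0466% in Brain and 0.0420% in Heart. Its correlation with the keratin sum across tissues was 0.84 (Spearman 0.80), and 0.71 without the barbels. Spleen held 0.741% keratin but 0.0156% desmosome and plakin RNA. Keratin 8 and desmoplakin (C0J45_06459) correlated at 0.41 only, and keratin 4 (C0J45_00982) and desmoplakin at 0.87.

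The body surface, taken as Skin and both barbels, was set against the 15 other tissues by mean log2(FPKM + 1), over genes with at least 5 FPKM somewhere. Different tissues are not replicates, so the means only summarise. Of 42 members compared, 20 were higher in the body surface by at least 4-fold and 0 lower. Among all 18697 genes compared, 5.33% were higher and 0.813% lower. The median difference was 1.79 over members and 0.05 over all genes. The 20 were 5 of 11 keratins, 2 of 4 desmosomal cadherins, 4 of 8 armadillo proteins, 8 of 11 plakins and 1 of 6 keratinocyte-named proteins. After the 3 leading keratins (11.08 for keratin 92, 9.46 for keratin 4 C0J45_00982 and 7.96 for keratin 97), the largest differences were those of plakophilin-3 (6.03), plakophilin-1 (5.69), desmoglein-2 C0J45_19918 (5.66), periplakin (5.18) and envoplakin C0J45_00236 (4.90). Keratin 8 (-0.48), keratin 18 (-0.40) and keratin-like (0.24) stayed under 4-fold. Keratin 4 C0J45_14628 rested on Skin alone: without the Skin library its difference was 0.28, against 2.34 with it. Dystonin C0J45_02076 was also under 4-fold without Skin (1.89, against 2.16 with it) and with libraries at the same upper quartile (1.81). Calls could also be carried by the barbels. Envoplakin C0J45_23481 stood at 2.99 in Skin, against 7.68 in Intestine and 181 in Gill. Keratinocyte-associated protein 3 stood at 2.91 in Skin, against 33.9 in Intestine and 16.9 in Kidney. The comparison was not repeated without the barbels, so a call is not a statement about Skin alone. In 21 of the 46 members above 1 FPKM (45.7%) the highest library was a body surface one, 11 in Maxillary_barbel, 6 in Mandibular_barbel and 4 in Skin. That share was 12.0% among all genes above 1 FPKM. A further 10 members were highest in Gill, a count whose share over all genes was not computed, so it is not read further.

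The 2 barbel libraries gave a yardstick for like tissues. Of 33 members compared, 0 were higher and 0 lower in Maxillary_barbel than in Mandibular_barbel by 4-fold, where 0.341% of 9962 genes were higher and 0.281% lower. The members' differences lay between -1.03, for desmoglein-2 C0J45_06625 at 2.36 FPKM in Maxillary_barbel and 5.83 in Mandibular_barbel, and 0.41. Keratin 92, keratin 97 and keratin 4 (C0J45_00982) were higher in Maxillary_barbel by 0.38, 0.36 and 0.27, and the envoplakins and periplakin lower by between 0.76 and 0.29.

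Gill is a thin respiratory epithelium, and it differed from the barbels in both directions. Of 36 members compared, 5 were higher in Gill than in the mean of the barbels by 4-fold and 10 lower, where 7.47% of 11976 genes were higher and 3.54% lower. The median difference was -0.45 over members and 0.26 over all genes. Those higher in Gill were desmoglein-2 C0J45_06624 (21.8 in Gill, 0 in both barbels; difference 4.51), keratin 18 (1252 in Gill, against 146 and 144 in the barbels; 3.10), desmoglein-2 C0J45_06625 (39.3 in Gill, against 2.36 and 5.83; 3.07), the keratin 8 copy C0J45_17017 (2.95) and envoplakin C0J45_23481 (2.08). Keratin 8 itself was 1.89 higher, at 1680 in Gill, against 467 and 438 in the barbels. Those lower in Gill were led by keratin 92 (-6.15), desmoglein-2 C0J45_19918 (-3.35), dystonin C0J45_02074 (1.53 in Gill, against 21.1 and 20.8; -3.12), keratin 4 C0J45_00982 (-3.10) and desmocollin-1 (-3.02). The same cadherin family thus had 2 members higher and 2 lower in Gill. Scaling libraries to the same sum took plakophilin-3 under 4-fold (-1.83, against -2.07 as deposited) and keratin 8 over it (2.13), and scaling to the same upper quartile took envoplakin C0J45_23481 under it (1.92). Other markers moved with this comparison: 2 hemoglobin markers summed to 5203 FPKM in Gill, against 892 and 107 in the barbels, the skeletal muscle markers to 61.4 in Gill, against 0.456 and 1.26, and ribosomal protein genes held 18.1% of FPKM in Gill, against 28.5% and 28.0%. Their part in the result was not tested.

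Among the keratins of the name rule, the 3 highest in Skin were also the 3 highest in the barbels, at lower levels in Skin, while the outside type I models C0J45_09361 and C0J45_20521 were higher in Skin (2.25 and 1.64). Of 34 members compared, 2 were higher in Skin than in the barbels by 4-fold and 17 lower, where 3.51% of 10628 genes were higher and 27.0% lower. The median difference was -2.02 over members and -1.16 over all genes. The 2 that were higher were the adjacent keratin 4 copies C0J45_14628 (6.16) and C0J45_14629 (5.70). The largest negative differences were those of envoplakin C0J45_00236 (5.23 in Skin, against 136 and 174 in the barbels; -4.63), keratinocyte-associated transmembrane protein 2 C0J45_13693 (4.31 in Skin, against 72.7 and 91.9; -3.96), KRT222 (-3.53), plakophilin-1 (-3.45) and envoplakin C0J45_23481 (-3.43). Keratin 92 (-1.01) and keratin 97 (-1.99) did not reach 4-fold, and dystonin C0J45_02076 (0.81), desmoplakin C0J45_16613 (0.63) and desmoglein-2 C0J45_06625 (0.47) were higher in Skin by less than that. Other features of the Skin library moved with these values. The 6 matched skeletal muscle markers summed to 3135 FPKM in Skin, against 0.456 and 1.26 in the barbels, the 5 epithelial markers to 204 in Skin, against 1736 and 1694, and ribosomal protein genes held 53.1% of FPKM in Skin, against 28.5% and 28.0%. Their part in the result was not tested. Without ribosomal protein genes and at the same sum, a choice made after seeing the data, 12 members were lower, and keratin 8, keratin 18, periplakin and plectin C0J45_06114 no longer reached 4-fold, as they did not at the same upper quartile either.

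Intestine was compared with Liver. Of 27 members compared, 19 were higher in Intestine than in Liver by 4-fold and 0 lower, where 30.0% of 9798 genes were higher and 6.33% lower. The median difference was 3.0 over members and 1.45 over all genes. Among 7 keratins 5 were higher: the Intestine keratin 4 C0J45_00984 (838 in Intestine, 0.0562 in Liver; 9.63), keratin 4 C0J45_00982 (765 and 5.07; 6.98), keratin 97 (360 and 9.46; 5.11), keratin 18 (1022 and 116; 3.13) and keratin-like (80.6 and 8.79; 3.06). Keratin 8 stood at 927 in Intestine and 264 in Liver (1.81). The 5 epithelial markers summed to 45.7 in Intestine and 34.1 in Liver. Only epcam was higher in Liver, at 24.5, against 8.04 in Intestine. By contrast, cdh1 stood at 31.8 in Intestine and 9.64 in Liver, and esrp1 at 5.35 and 0.0184. Both tp63 and grhl3 were below 1 FPKM in either tissue. Desmin is the filament protein of muscle. Its model read here, the higher of 2, stood at 2595 in Intestine and 0.764 in Liver, but at only 0.478 in Muscle and 1.39 in Heart. The part of cell make-up in these differences was not tested. Of 16 desmosome and plakin proteins 13 were higher, led by desmoplakin C0J45_06459 (52.5 in Intestine, 1.63 in Liver; 4.35) and plakophilin-1 (35.1 and 0.859; 4.28). At the same upper quartile, keratin 18, keratin-like, plakoglobin a and desmoglein-2 C0J45_19918 were under 4-fold, and the last also at the same sum.

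Heart muscle cells are joined by desmosomes at their intercalated discs, and skeletal muscle fibres are not. Of 19 members compared, 14 were higher in Heart than in Muscle by 4-fold and 0 lower, but 52.1% of 7797 genes were higher in Heart and 2.87% lower. The median difference was 2.98 over members and 2.07 over all genes. Of 12 desmosome and plakin proteins 10 were higher, with a median of 3.62. Plakophilin-1 stood at 37.4 in Heart and 0.325 in Muscle (4.86), plakophilin-3-like at 26.7 and 0.104 (4.65), desmocollin-1 at 26.5 and 0.146 (4.58) and plakoglobin a at 32.3 and 0.586 (4.39). The desmoplakins stood at 25.6 and 0.494 (4.15) and at 21.0 and 0.698 (3.69), and desmoglein-2 C0J45_06625 at 15.8 and 0.441 (3.54). At least 1 model of each kind of desmosome part, taken by product name, was thus at 15 FPKM or more in Heart and below 1 in Muscle. Other models were near 0 in Heart, among them plakophilin-3 at 0.0229, plakoglobin C0J45_18674 at 0.0579 and desmoglein-2 C0J45_06624 at 0.0116. The difference was not particular to desmosomes. Of 4 adherens junction genes compared, 4 were higher in Heart (median 4.99), as were 4 of 4 fibroblast and cartilage markers (median 3.85). Their part in the result was not tested. Plakophilin-2, which in mammals is the plakophilin of heart muscle, was at 0.685 in Heart and 0.0660 in Muscle, too low to be compared. At the same upper quartile, 9 members were higher in Heart and 3 lower, these being keratin 4 C0J45_00982, keratin 92 and keratin 97, while the 7 desmosome values just given all stayed above 4-fold. As deposited, these 3 keratins were low in both tissues, at 3.94, 2.72 and 0.0709 FPKM in Heart and 6.61, 5.20 and 2.21 in Muscle. Keratin 97 passed the minimum of 5 FPKM only after this scaling. Muscle and Heart also differ in estimated depth, which cannot be told apart from tissue here.

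**Figure D5:**
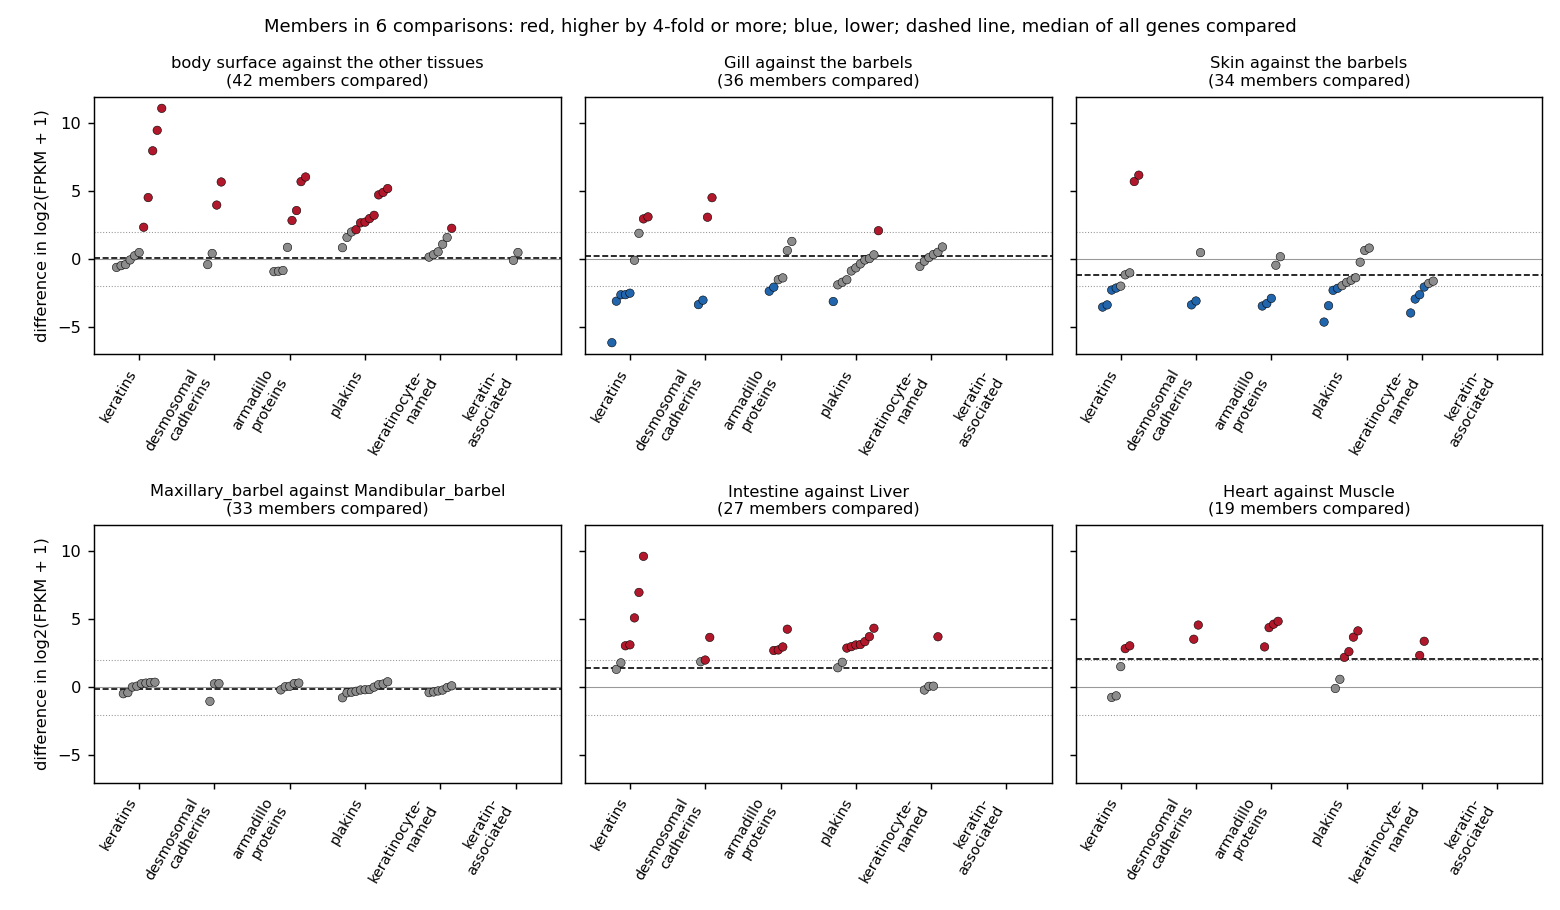
Difference in log2(FPKM + 1) of each member compared (points, by class) in 6 comparisons, with the first-named tissue above 0 when higher. Red and blue points differ by 4-fold or more, dotted lines mark that threshold, and the dashed line is the median of all genes compared. The body surface panel has 20 red points and no blue one, the Gill and Skin panels have both colours, and the dashed line lies at 2.07 in the Heart panel and at -1.16 in the Skin panel.

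All 6 keratinocyte-named proteins and 3 of the 8 keratin-associated ones reached 1 FPKM in some tissue. Keratinocyte-associated protein 2 (C0J45_03745), a subunit of the enzyme complex that attaches sugar chains to new proteins, ran from 4.31 in Muscle over a median of 32.9 to 72.5 in Gill. Keratinocyte-associated transmembrane protein 2 (C0J45_13693) ran from 2.27 in Ovary over a median of 42.3 to 116 in Gill, and a fragment of the same name (C0J45_24909) reached 14.7 in Gill. Keratinocyte-associated protein 3 (C0J45_08083) was more restricted, at 33.9 in Intestine, 23.1 and 22.9 in the barbels, 16.9 in Kidney and 15.5 in Gill. The 2 keratinocyte differentiation factor 1 models, named for a regulator of mammalian epidermis, reached 6.10 (C0J45_18652) and 9.39 (C0J45_23306), both in Mandibular_barbel. Of the keratin-associated models, C0J45_07950 stood at 15.9 in Retina, 15 in Head_kidney and 12.4 in Spleen, and C0J45_12872 at 6.28 in Brain. By its annotated domains C0J45_07950 carries a cysteine-rich region of the TNF receptor kind, and C0J45_12872 has no annotated domain.

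Genes that work beside the members gave a further view, each symbol read from its highest gene model. Among all genes compared, 5.33% were higher and 0.813% lower in the body surface, and 7.47% were higher and 3.54% lower in Gill than in the barbels. Of 7 matched hemidesmosome and basement membrane genes, 5 were higher in the body surface than in the other tissues by 4-fold and 0 lower (median 2.78): col17a1, the transmembrane collagen of hemidesmosomes, had 94.7 FPKM in Skin and 106 and 108 in the barbels, and itgb4, its integrin partner, 65.2 in Skin and 61.4 and 59.2 in the barbels. In Gill, 0 of 6 were higher than in the barbels and 4 were lower (median -3.19). Among them were col17a1 (8.75 in Gill), itga6 (0 in Gill, 8.29 and 6.72 in the barbels) and lamb3 (0.214 in Gill, 13.1 and 12.8 in the barbels). The itga6 model read was the higher of 2, and the other was not read, so its values are not those of the gene as a whole. Intestine, by contrast, had 76.9 of col17a1, 49.6 of itgb4 and 21.5 of itga6. In Skin, 2 of the 6 were lower than in the barbels (itga6 and lamb3), with a median of -0.16. That is near the share over all genes, of which 27.0% were lower in Skin.

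Of 7 adherens junction genes, 2 were higher in the body surface (cdh1 and nectin1; median 1.18), and 0 differed by 4-fold between Gill and the barbels (median -0.23). For these lists too, the share of all genes compared was 5.33% higher and 0.813% lower in the body surface. Of 7 matched keratinocyte regulators and envelope genes, 6 were higher in the body surface (median 4.67): tp63 at 36.2 in Skin and 163 and 132 in the barbels, perp at 58.1, 670 and 586, klf4 at 19.1, 454 and 358, and grhl1, grhl3 and ovol1. The tgm1 model read, the highest of 3, was the exception, at most at 2.45 in the body surface and at 47.7 in Brain. The other tgm1 models were not read. Of 5 epithelial adhesion genes 4 were higher, led by epcam at 141 in Skin and 1238 and 1228 in the barbels. Of 11 other intermediate filament genes compared, 0 were higher and 2 lower, vimentin and desmin (median -1.76). The desmin model read was highest in Intestine at 2595, with 0.478 in Muscle. The vimentin model read, the highest of 3, was led by Retina at 501. It stood at 0.226 in Skin and 3.25 and 0.453 in the barbels, and the other vimentin models were not read.

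The genes most like the summed keratins across the 18 tissues, ranked by the Pearson correlation of log2(FPKM + 1) among 14066 named genes with at least 10 FPKM somewhere, were MAP3K5 (C0J45_04254, 0.962), BCL2 interacting killer (C0J45_16213, 0.950), a niban-like protein (C0J45_22607, 0.950), FAM83H (C0J45_19469, 0.938) and an apolipoprotein L6-like protein (C0J45_23067, 0.936). All were low in level, the highest being BCL2 interacting killer at 87.1 FPKM in Maxillary_barbel.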

How the data were processed

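The authors deposited FPKM for 25390 genes in 18 columns, 1 per tissue, named by the tissue labels. Per the labels' protocols, RNA was extracted with Trizol, treated with DNase and selected for poly(A), and libraries were paired-end. The submitters' processing notes name StringTie 1.3.4d. The aligner is not given in the sources used here, nor is the genome build. Coordinates are those of the deposited feature table, 1-based, which also gave product names, domains and coding exons. Of its 25451 models, 61 had no FPKM row, and 26 members are partial at an end.

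FPKM is not a count, so no count model was used. Only 9.92% to 19.8% of low values lay within 0.02 steps of whole reads, so counts could not be rebuilt and values carry no counting interval. Members were found by product name. Named genes were the 15 keratin-named members of highest FPKM, the highest keratin of each tissue, enriched members, other members of at least 5 FPKM and up to 5 per direction in a comparison; a low desmoglein-2 and a low plectin model were named after their values were seen. Members and lists were chosen with earlier results of these data known. The values of 1 gene of the related lists are not reported here. The steps were tested on simulated data. Software was Python 3.11.15 (numpy 2.4.6, pandas 2.3.3, scipy 1.17.1) and matplotlib 3.10.9 for plots.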

Additional observations from a re-analysis of the deposited data

How the results depend on the processing

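No paired analysis was possible because each tissue has 1 library. A pseudocount of 0.1, no minimum FPKM, libraries at the same sum and Gill left out of the other tissues kept every count of members within 1.5 times. A threshold of 8-fold left 13 higher in the body surface, 3 higher and 5 lower in Gill, 9 lower in Skin and 9 higher in Heart. The same upper quartile gave 11 lower in Skin, and 9 higher with 3 lower in Heart; it moved the median of all genes by 0.74 for Skin against the barbels, -1.16 for Intestine against Liver, -1.28 for Heart against Muscle, -0.24 for the body surface and -0.15 for Gill, and the same sum moved it by 0.23 for Gill and 0.22 for Heart. Averaging the barbels gave 8 tissue-enriched members, and leaving out Skin 5 enriched for the barbels alone, as were 0.311% of all genes. For the keratins of the name rule, the Testis share was 0.549% with mitochondrial and hemoglobin genes left out of the denominator. Adding the outside type I models, chosen after seeing the data, gave keratin shares of 3.42% in Skin and 0.466% in Testis, over all FPKM. With them, type I to type II ratios were 6.0 in Skin, 1.02 in Gill, 1.17 in Intestine and 1.59 in Testis. In Intestine and Testis most of the added FPKM came from C0J45_09359 alone. Type II models were not looked for outside the rule, so the addition could only raise these ratios. Without the highest chain of each type, the ratio was 2.35 in Skin, 12 in Maxillary_barbel, 10.1 in Mandibular_barbel, 0.275 in Intestine and 30.8 in Spleen, each sum then resting on fewer chains by construction. No direction of a called member was reversed. By the rough estimate of depth, Skin and Muscle are limited most.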

Other observations

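Filament genes outside the keratins and the fixed lists, looked at after the data were seen, added values on the body surface. Thread biopolymer filament subunit alpha (C0J45_13910), an intermediate filament protein named after a subunit of hagfish slime threads, stood at 226 FPKM in Maxillary_barbel, 249 in Mandibular_barbel and 30.8 in Skin. Gill had 1.49, and the other 14 tissues were between 0.0108 and 4.04, the highest being Head_kidney. Intermediate filament family orphan 2-like (C0J45_16951) stood at 60.8 in Maxillary_barbel, 65.1 in Mandibular_barbel, 2.39 in Skin and 5.06 in Gill, with at most 2.73 in Retina elsewhere. An intermediate filament protein-like model (C0J45_01660) was instead at 482 in Brain, 213 in Telecephlon, 55.5 in Olfactory_bulb and 41.8 in Retina, and at 0.673 or less in the body surface.

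Among the hypothetical proteins with the type I keratin domain, C0J45_02599 stood at 196 FPKM in Gill, against 52.0 and 40 in the barbels, C0J45_09360 at 29.4 in Gill, against 0.0144 or less in the barbels, and C0J45_22381 at 32.6 and 30.4 in the barbels and 18.8 in Intestine. C0J45_10392 was highest in Testis at 23.0 and Kidney at 15.9. The cytokeratin fragment C0J45_23771, on an unplaced scaffold, stood at 18.5 in Skin and at 0.421 or less in all other tissues.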
